A study of Mus musculus with 6 samples.

Results

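The 10 genes described here make the parts with which cells show peptides to CD8 T cells: the class I heavy chains H2-K1 and H2-D1, their light chain B2m, the peptide transporter genes Tap1 and Tap2, the loading factor Tapbp, the coactivator Nlrc5, and the immunoproteasome catalytic subunits Psmb8, Psmb9 and Psmb10. They were taken by name from a list, with Ensembl gene identifiers matched to symbols through GENCODE M21. All 10 were among the 21959 genes of the deposited table, and all 10 were among the 10060 genes tested. The series holds RNA-seq of mouse tumour neutrophils in models made with Hepa1-6, a hepatoma cell line of the mouse. Of its 6 libraries, 3 carry the label GPR35-negative and 3 the label GPR35-positive, called negative and positive libraries below. GPR35 is a G protein-coupled receptor. The comparison asks how the GPR35-positive libraries differed from the GPR35-negative ones. The labels name no other genotype, treatment, time, age or strain. How cells were sorted and whether each replicate was an animal of its own are not stated. The p-values therefore cover the spread between these libraries alone, which may be technical.

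A class I molecule is a heavy chain bound to beta-2 microglobulin and to a short peptide. The proteasome cuts cytosolic proteins into such peptides, the TAP transporter carries them into the endoplasmic reticulum, and tapasin holds empty class I molecules beside TAP until a peptide is bound. In cells exposed to interferon gamma, PSMB8, PSMB9 and PSMB10 replace the constitutive subunits PSMB5, PSMB6 and PSMB7 in newly built proteasomes, and NLRC5 acts at class I promoters through factors that bind a composite element upstream of these genes. Nearly all nucleated cells, hepatoma cells and leukocytes included, can make class I molecules, so the source cell of a class I read cannot be told from the gene.

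RefSeq promoter windows of GRCm38.p6, with 250 bases before each start, were matched for 8 of the 10 genes, all but Tap2 and Nlrc5. In 3 of the 8, those of H2-K1, H2-D1 and B2m, the letters TGACG, a pentamer of cAMP response elements, were followed after 20 bases by ATTGG, the inverted CCAAT box. Those are letters that the factors working with NLRC5 can bind. These 3 stretches are shown because the genes that carry them are the 3 most abundant of the set in positive libraries. The capitals mark TGACG and ATTGG, and each sequence reads 5′ to 3′ on the strand of its gene.
H2-K1, chr17:34000359-34000388, reverse strand: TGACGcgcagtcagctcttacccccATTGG
H2-D1, chr17:35262993-35263022, forward strand: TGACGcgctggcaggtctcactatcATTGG
B2m, chr2:122147609-122147638, forward strand: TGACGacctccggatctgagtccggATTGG
The stretches end 12, 72 and 49 bases before the RefSeq starts of H2-K1, H2-D1 and B2m. That of H2-D1 lies in a 5′ UTR of a GENCODE transcript with an earlier start.

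Searched on both strands of 32851 promoter windows, this pair of motifs over a range of spacings occurred in 198, or 0.603%. At exactly 20 bases, the spacing seen in H2-K1, H2-D1 and B2m, it occurred in 30 (0.0913%), those genes included. The smaller share thus rests on a spacing that these genes have. TGACG alone occurred in 17.8% of windows and in 5 of the 8 genes, and ATTGG alone in 33.8% and in 6. The kappaB consensus was present in 7.25% of all windows and in those of H2-K1, H2-D1 and B2m. The letters GGGGATTCCCC, which overlap that consensus, were taken from the H2-K1 window itself, so H2-K1 matches by construction. They were in 10 windows (0.0304%), those of H2-K1 and H2-D1 among them. GAAANNGAAA, a core of the interferon-stimulated response element, was in 2.98% of windows and, of the 8 genes, in B2m. TTCNNNGAA, a core of gamma-activated sites, was in 7.02% and, of the 8, in Psmb8. The upstream windows of H2-K1 and H2-D1, 250 bases each, were alike over part of their length. Of 190 bases aligned without a gap, 170 were identical (89.5%), and the rest of each window is not in that percentage. The longer windows of H2-K1 and B2m are shown because they hold the kappaB letters, and in B2m the interferon motif, upstream of the pair above. In H2-K1 the capitals mark GGGGATTCCCC, TGACG and ATTGG, and in B2m the interferon motif, the kappaB match on the opposite strand, TGACG and ATTGG.
H2-K1, chr17:34000359-34000468, reverse strand: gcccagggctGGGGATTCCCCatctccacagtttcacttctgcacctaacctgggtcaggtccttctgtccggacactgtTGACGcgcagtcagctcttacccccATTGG
B2m, chr2:122147538-122147638, forward strand: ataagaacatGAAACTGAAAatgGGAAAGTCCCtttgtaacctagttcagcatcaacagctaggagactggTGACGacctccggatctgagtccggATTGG
A match describes letters only, and no binding was measured.

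Each library held between 15742744 and 18314104 reads assigned to genes, a depth derived from the smallest steps of the FPKM values (fragments scaled to exon length and library reads). Gpr35, the gene that the labels name, was at 1.57 ± 0.398 FPKM in negative and 20.2 ± 1.89 FPKM in positive libraries (SD, n = 3 each). Mature neutrophil markers summed to between 896 and 1147 FPKM in negative and between 9794 and 10750 FPKM in positive libraries, and all 14 rose. Transcripts of other cells were present too. Hepatocyte and hepatoma markers summed to between 25710 and 27170 FPKM and between 17190 and 17620 FPKM, with 15 of 18 lower. Macrophage and monocyte markers summed to between 39.1 and 53.3 FPKM and between 954 and 987 FPKM, with 13 of 13 tested higher. Without any one positive library only 6 of them were tested, all higher, so the others entered the fit only through the positive group. A gauge of 16 pan-leukocyte genes, such as Ptprc and Coro1a, summed to 283, 247 and 211 FPKM in negative replicates 1 to 3 and to 2260, 2301 and 2323 FPKM in the positive ones, a ratio of 9.3. B and plasma cell markers were under 1 FPKM in every library. T and NK markers were 1 higher and 4 lower of 10 tested (2 lower with median-of-ratios scaling). Without any one positive library, 0 of 9 tested were higher. Endothelial markers were 2 higher and 2 lower of 4 (1 lower with that scaling), and only 3 were tested without any one positive library. Fibroblast and stellate cell markers were 5 higher and 1 lower of 6, but only 3 higher without negative replicate 3 or positive replicate 3. Their median was 0.48 on the log2 scale, and 0.22 over all 10 without a filter. Of 9 dendritic cell markers only 2 were tested, Batf3 of them only through the positive group, and the median of all 9 without a filter was 0.26 on the log2 scale. In such bulk samples, fewer cells of a type and less RNA per cell cannot be told apart. Of the 10060 genes tested, limma called 23.3% higher and 45.5% lower in positive libraries, at an adjusted p under 0.05.

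Class I transcripts were higher in the positive libraries, and H2-K1 rose most. Of the 10 genes, 8 rose, 0 fell and 2, Tapbp and Psmb10, did not pass the test. That share stood beside the 23.3% called higher among all genes tested. None of the 10 was lower at an unadjusted p under 0.05 or by limma-voom. Groups did not overlap in the same 8 genes, as in 7295 of the 10060 genes tested. The median log2 fold change of the 10 was 0.59, on the log2(FPKM + 1) scale, against −0.19 for all genes tested. With median-of-ratios scaling the median of all genes moved to −0.03 and 9 of the 10 rose. Beside them, 2913 of the 10060 genes tested were higher, in place of 2342. Of the calls in either direction, 54.8% were then higher, against 33.9% as deposited. Only H2-K1 and Nlrc5 reached a ratio of mean FPKM of at least 2.

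**Figure D1:**
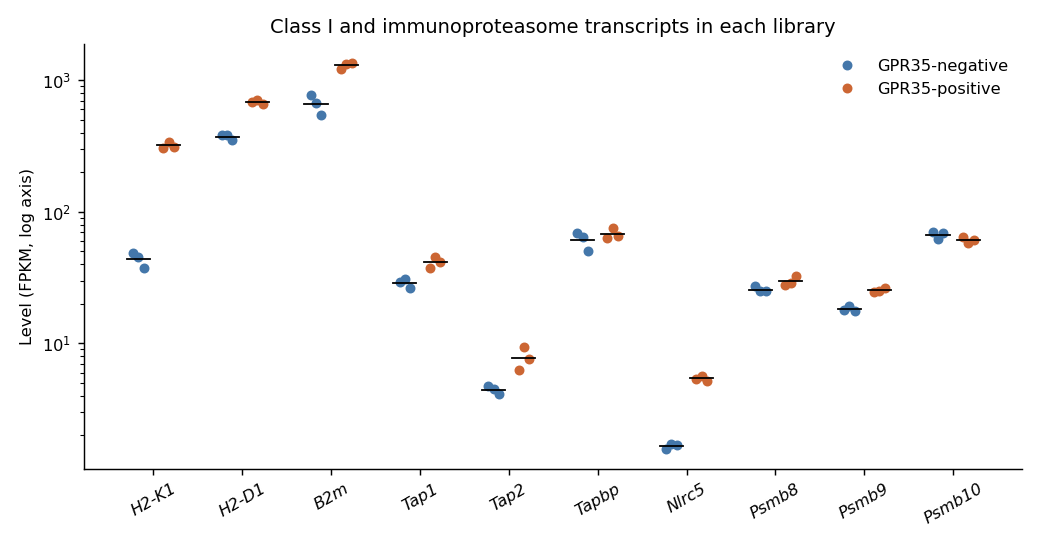
Level of each of the 10 genes in each library, in FPKM on a log axis, with blue points for the 3 GPR35-negative and orange points for the 3 GPR35-positive libraries and a bar at each mean. The groups of H2-K1 lie farthest apart, at means of 43.7 and 320.4 FPKM, while those of Tapbp and Psmb10 overlap.

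H2-K1 encodes the heavy chain of the classical class I molecule H-2K. Its level was 48.2, 45.3 and 37.6 FPKM in negative replicates 1 to 3 and 307, 340.1 and 314 FPKM in the positive ones. All 3 positive libraries were above all 3 negative ones, with a gap wider than the spread of either group. The means were 43.7 ± 5.48 and 320.4 ± 17.4 FPKM (SD, n = 3 each), a ratio of 7.33, for a log2 fold change of 2.85 (SE 0.09; limma adjusted p = 1.95e-09). Of all genes tested, 172 had a larger log2 fold change. The gene, ENSMUSG00000061232, spans 33996017 to 34000347 of chromosome 17, reverse strand (GRCm38, as for all positions given here), and the reads are over its exons.

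H2-D1 encodes the heavy chain of H-2D, the other classical class I molecule measured. It was at 381, 386 and 354 FPKM in the negative and 684, 709 and 666 FPKM in the positive replicates, without overlap. The ratio of means was 1.84 and the log2 fold change 0.88 (SE 0.07, adjusted p = 1.28e-06). The gene, ENSMUSG00000073411, spans 35262730 to 35267499 of chromosome 17, forward strand. H2-D1 was thus the more abundant heavy chain transcript in all 6 libraries, but its ratio to H2-K1 in the same library was 7.89, 8.52 and 9.40 in negative and 2.22, 2.08 and 2.12 in positive libraries. That ratio did not overlap between groups (exact permutation p = 0.1, two-sided, the smallest that 3 against 3 libraries allow; 0.112 adjusted over 29 ratios). The summed H2-K1 and H2-D1 level was 417 ± 22.3 and 1006 ± 37.1 FPKM (SD, n = 3 each), 589 FPKM apart, of which H2-K1 made 277 and H2-D1 312 FPKM. These parts rest on the gene lengths behind FPKM. Per kilobase of the principal GENCODE transcript, mean H2-K1 was 79.3 in negative and 581.5 in positive libraries. Mean H2-D1 was 458 and 841.5. By that length H2-K1 made the larger part of the difference. The H2-D1 to H2-K1 ratio was then lower in both groups than in FPKM.

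Class I heavy chains are near copies of each other, and the authors' counting may have split or dropped shared reads, so their levels are uncertain. Of the 50-base stretches in GENCODE transcripts of H2-K1, 9.63% also occurred in another gene, most often in H2-Q10 (5.18%). For H2-D1 the share was 12.8%, most often with H2-Q1 (5.87%). No such stretch of B2m, Nlrc5, Psmb9 or Psmb10 was found in another gene, and the shares were 0.442% for Tap1, 0.655% for Tap2, 2.87% for Tapbp and 0.227% for Psmb8.

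B2m encodes beta-2 microglobulin, the light chain shared by class I molecules. It was the most abundant of the 10 transcripts in both groups, at 767, 669.5 and 541 FPKM in negative and 1214, 1341 and 1347 FPKM in positive replicates. The negative libraries were spread more widely, and the groups did not overlap. The ratio of means was 1.97 and the log2 fold change 0.99 (SE 0.12, adjusted p = 3.93e-05). The gene, ENSMUSG00000060802, lies outside the histocompatibility region and spans 122147686 to 122153083 of chromosome 2, forward strand. H2-K1 stood at 0.0667 ± 0.00342 of the B2m level in negative and 0.247 ± 0.0118 in positive libraries (SD, n = 3 each; exact permutation p = 0.1, 0.112 adjusted over 29 ratios). Within the negative group, B2m, H2-K1 and the leukocyte gauge had the same order of libraries, highest in replicate 1 and lowest in replicate 3. In the positive group the gauge was highest in replicate 3, as was B2m, and H2-K1 in replicate 2. The part of leukocyte content in these levels was not tested.

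Nlrc5, the coactivator of class I genes, was the least abundant of the 10 and had the second highest fold. Its level was 1.56, 1.72 and 1.69 FPKM in negative and 5.40, 5.65 and 5.22 FPKM in positive replicates, a ratio of means of 3.27. Its log2 fold change was 1.27 (SE 0.08, adjusted p = 2.72e-07), and 833 genes had a larger one. Between 226 and 247 reads covered it in each negative library and between 783 and 812 in each positive one. The exact 95% Poisson intervals ran from 198 to 280 reads (lowest to highest bound) in the former and from 729 to 870 reads in the latter, and such intervals cover counting error only. The gene, ENSMUSG00000074151, spans 94434356 to 94527272 on the forward strand of chromosome 8. Nlrc5 stood at 0.0384 ± 0.00627 of the H2-K1 level in negative and 0.0169 ± 0.000554 in positive libraries (SD, n = 3 each; exact permutation p = 0.1), without overlap.

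The transporter genes rose by less. Tap1 was at 29.4, 30.7 and 26.4 FPKM in negative and 37.4, 45.1 and 41.5 FPKM in positive replicates (log2 fold change 0.50, SE 0.09, adjusted p = 0.000633). Tap2, which encodes the other chain of the transporter, was at 4.72, 4.46 and 4.10 FPKM and at 6.31, 9.43 and 7.58 FPKM (log2 fold change 0.68, SE 0.12, adjusted p = 0.000824). Neither gene overlapped between groups, and the Tap2 level varied most among the positive libraries. Although the proteins pair as a heterodimer, Tap2 transcripts stood at 0.154 ± 0.00792 of Tap1 in negative and 0.187 ± 0.0204 in positive libraries (SD, n = 3 each; exact permutation p = 0.1). That ratio rests on the gene lengths behind FPKM. Per kilobase of the principal transcript, mean Tap2 was 4.87 and mean Tap1 53.5 in negative libraries. In positive ones they were 8.54 and 76.6. Tap1, ENSMUSG00000037321, lies from 34187553 to 34197225 and Tap2, ENSMUSG00000024339, from 34203527 to 34216321, both on the forward strand of chromosome 17.

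Tapbp, the gene of tapasin, did not pass the test. It was at 69.1, 64.2 and 50.4 FPKM in negative and 62.8, 75.0 and 65.9 FPKM in positive replicates, and the groups overlapped. Its log2 fold change came to 0.16 (SE 0.11, adjusted p = 0.243). With median-of-ratios scaling it was 0.35 and passed (adjusted p = 0.0226), and without negative replicate 3, the lowest library, it was 0.02 (adjusted p = 0.816). The gene, ENSMUSG00000024308, spans 33915899 to 33929292 of chromosome 17, forward strand.

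Of the 3 immunoproteasome subunits, Psmb9 rose, Psmb8 rose by less, and Psmb10 did not pass. Psmb9, whose product takes the place of PSMB6, was at 18.03, 19.2 and 17.5 FPKM in negative and 24.7, 24.9 and 26.3 FPKM in positive replicates (log2 fold change 0.45, SE 0.07, adjusted p = 0.00035). Psmb8, whose product takes the place of PSMB5, was at 27.2, 24.9 and 24.8 FPKM and at 27.8, 29.0 and 32.3 FPKM. Its groups did not overlap, but the lowest positive library was only just above the highest negative one. The log2 fold change of Psmb8 was 0.20 (SE 0.08, adjusted p = 0.0408). This call ended without a filter on low genes (adjusted p = 0.0625) and without any one of negative replicates 2 (0.124) and 3 (0.0855) and positive replicates 2 (0.0655) and 3 (0.197).

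Psmb10, whose product takes the place of PSMB7, had the highest level of the 3, at 70.2, 61.8 and 68.5 FPKM in negative and 64.7, 57.7 and 61.2 FPKM in positive replicates. The groups overlapped. Its log2 fold change was −0.12 (SE 0.08, adjusted p = 0.163), and 0.07 with median-of-ratios scaling (adjusted p = 0.457), so that its sign depended on the scaling. Psmb8, ENSMUSG00000024338, spans 34197721 to 34201454 of chromosome 17, forward strand. Psmb9, ENSMUSG00000096727, spans 34181987 to 34187764, reverse strand. Psmb10, ENSMUSG00000031897, spans 105935735 to 105938444 of chromosome 8, reverse strand.

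The constitutive partners showed no matching rise in the deposited scale. Psmb5 fell from 96.6 ± 4.54 to 78.8 ± 3.44 FPKM (SD, n = 3 each; limma adjusted p = 0.00363), a call that ended after median-of-ratios scaling (log2 fold change −0.09, adjusted p = 0.269). Psmb6 was at 279.5 ± 16.8 and 298 ± 19.7 FPKM (adjusted p = 0.289) and passed as higher with median-of-ratios scaling (0.29, adjusted p = 0.00809). Psmb7 was at 12.8 ± 0.894 and 11.7 ± 0.952 FPKM (adjusted p = 0.236).

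A percentage within a library does not depend on how libraries are scaled against each other. Psmb8 made up 21.1%, 20.6% and 21.2% of the summed Psmb8 and Psmb5 level in negative and 25.7%, 27.9% and 28.4% in positive replicates. Psmb9 made up 5.70%, 6.74% and 6.00% of Psmb9 and Psmb6, and then 7.19%, 8.16% and 8.18%. Both percentages were higher in every positive library than in any negative one (exact permutation p = 0.1 each, 0.112 adjusted over 29 ratios). Psmb10 made up 83.9 ± 0.046% of Psmb10 and Psmb7 in negative and 84.0 ± 0.523% in positive libraries (SD, n = 3 each; exact permutation p = 0.8), and these overlapped. The difference for Psmb10 was 0.038 percentage points and changed sign without positive replicate 2, to −0.212 points.

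The absolute percentages rest on the gene lengths behind FPKM. The exons of all GENCODE transcripts of Psmb8 together span 3381 bases and its principal transcript 1628 bases, while both lengths are 899 bases for Psmb5. Per kilobase of the principal transcript, the Psmb8 percentage was 35.5% in negative and 43.9% in positive libraries, a difference of 8.33 points in place of 6.37. This alternative was chosen after the data were seen.

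**Figure D2:**
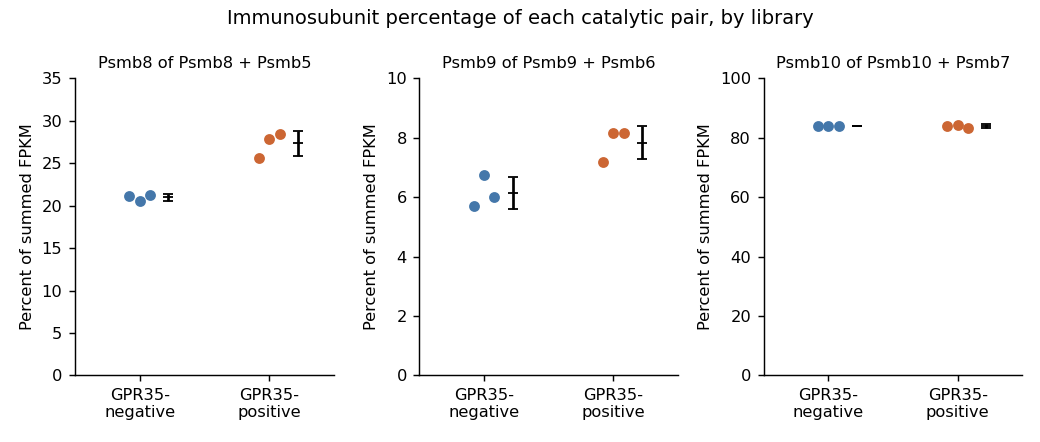
Percentage of the immunosubunit in the summed FPKM of each pair of catalytic subunits, by library (blue GPR35-negative, orange GPR35-positive), with the mean ± SD of 3 libraries beside the points. Psmb8 and Psmb9 made up more of their pairs in GPR35-positive libraries, at 27.3% against 20.97% and 7.84% against 6.15%, and Psmb10 did not differ by more than its spread.

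The order of levels of the 10 genes was largely shared by the groups, apart from H2-K1. In negative libraries it ran B2m, H2-D1, Psmb10, Tapbp, H2-K1, Tap1, Psmb8, Psmb9, Tap2 and Nlrc5, in FPKM. Psmb10 and Tapbp overlapped there, as did Tap1 and Psmb8. In positive libraries H2-K1 stood in place 3, above Tapbp and Psmb10, which overlapped, and the rest kept that order. The order rests on the gene lengths behind FPKM. Per kilobase of the principal transcript, mean H2-K1 was 79.3 and mean Tapbp 76.6 in negative libraries, so H2-K1 stood above Tapbp there too. By that length, mean Psmb9 stood above mean Psmb8 in positive libraries, at 68.5 and 61.6.

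Set against the pan-leukocyte gauge of the same library, each of the 10 genes was lower in the positive libraries, without overlap (exact permutation p = 0.1 each, 0.112 adjusted over 29 ratios). The gauge sum rose 9.3-fold and no member more than 7.33-fold, so lower ratios follow from the gauge. These p-values mostly restate its rise. H2-K1 was closest to the gauge, at 0.178 ± 0.00645 of it in negative and 0.140 ± 0.00712 in positive libraries (SD, n = 3 each), 1.27-fold lower. Nlrc5 was 2.89-fold lower, B2m 4.70-fold and H2-D1 5.12-fold. At the other end stood Psmb8 at 8.11-fold, Tapbp at 8.38-fold and Psmb10 at 10.3-fold lower. The 16 gauge genes themselves all rose, by a median of 2.81 on the log2 scale. The log2 fold change of H2-K1, 2.85, was not below that median, so its place under the gauge rests on the sum. Without any one positive library, 15 were tested and all 15 rose. All 16 are leukocyte genes, whereas hepatoma cells also transcribe class I genes, and how much of each class I level came from either source was not tested.

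Class II genes, which antigen-presenting cells use to show peptides to CD4 T cells, differed by more than most class I genes. All 7 tested rose, by a median of 2.37 on the log2 scale, beside 23.3% higher of all genes tested. The list summed to between 204.5 and 245 FPKM in negative and between 1459 and 1543 FPKM in positive libraries, a ratio of 6.74. H2-K1 stood at 0.197 ± 0.0129 and 0.215 ± 0.0152 of the class II sum (SD, n = 3 each; exact permutation p = 0.2, 0.215 adjusted), and these overlapped. The other 9 genes were between 2.08-fold (Nlrc5) and 7.39-fold (Psmb10) lower against that sum in positive libraries, without overlap (exact permutation p = 0.1 each). Each of those 9 had a smaller ratio of means than the sum, so their lower ratios follow from its rise.

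Tap1, Tap2, Psmb8 and Psmb9 lie inside the class II region, so near neighbours on chromosome 17 could be set side by side. At lower coordinates than the Psmb9 start, H2-DMa, H2-DMb2 and H2-DMb1, whose products help load class II molecules, had log2 fold changes of 1.94, 2.24 and 2.04. At higher ones, H2-Ab1, H2-Aa and H2-Eb1, the class II chains themselves, had 3.07, 2.98 and 2.59. The 4 class I processing genes between them ranged from 0.20 to 0.68. Brd2, which encodes a chromatin reader and lies 65.1 kb before the Psmb9 start, fell from 55.7 ± 2.103 to 45.8 ± 5.22 FPKM (SD, n = 3 each; limma adjusted p = 0.014). The starts of Tap1 and Psmb9 face each other with 225 bases between them in RefSeq, and their GENCODE transcripts overlap. No source used here says whether counting was by strand, so reads of that overlap cannot be told apart. Psmb9 stood at 0.634 ± 0.0250 of Tap1 in negative and 0.615 ± 0.0568 in positive libraries (SD, n = 3 each; exact permutation p = 0.8), a difference of −0.0186 that turned to 0.0133 without positive replicate 2.

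**Figure D3:**
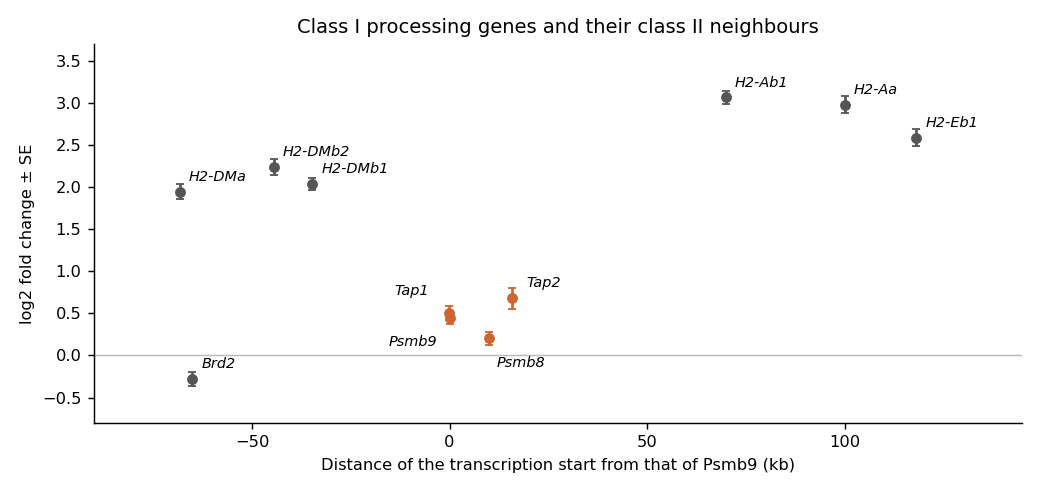
Log2 fold change ± SE of the genes tested within 150 kb of the Psmb9 start, by distance of their start from it in kb, with class I processing genes in orange and other genes in grey. The 4 orange points lie between 0.20 and 0.68, and the class II genes on either side between 1.94 and 3.07.

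Other class I and class I-like heavy chains moved in both directions. Of 22 listed, 21 were in the table and 13 were tested. Of those, 9 rose and 1, H2-Q1, fell, and 10 and 1 with median-of-ratios scaling. Among all genes tested, 23.3% were higher and 45.5% lower. A low gene can pass the filter through its rise. Without a filter the median log2 fold change of the 21 was 0.33, against 0.67 for the 13 tested. Without any one positive library, 10 could be tested and 6 rose, and without negative replicate 3, H2-T23 fell as well. H2-Q10, which encodes a secreted class Ib molecule made mainly by liver, rose from 2.41 ± 0.209 to 28.3 ± 1.23 FPKM (SD, 3 libraries per group; log2 fold change 3.11, adjusted p = 8.16e-10). Of the 50-base stretches of H2-Q10, 19.0% occurred in another gene and 3.97% in H2-K1. H2-T24 and Cd1d1, a lipid-presenting class I-like gene, rose by 1.21 and 0.75. H2-M2 was at 0 to 0.0761 FPKM in negative and 1.74 to 1.92 FPKM in positive libraries. It entered the fit only through the positive group, so no p is given for it. H2-Q1 fell from 5.86 ± 1.11 to 3.35 ± 0.131 FPKM (adjusted p = 0.000845).

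Endoplasmic reticulum genes listed for class I folding, editing and trimming were mostly lower as deposited. The list also holds general folding and translocon genes, which do not serve class I alone. Of 13 tested, 2 rose and 10 fell, and their median was −0.33 on the log2 scale, but only 4 fell with median-of-ratios scaling. Those that fell under both scalings were Uggt1, the glucosyltransferase that checks folding, at −0.54, the translocon genes Sec61a1 and Sec61b at −0.41 and −0.42, and Mogs. Ero1l, an oxidase of disulfide formation, rose from 166 ± 18.04 to 238 ± 4.89 FPKM (SD, n = 3 each; limma adjusted p = 0.000363). Tapbpl, Erap1 and the partners of tapasin in the peptide-loading complex are given outside the naming rule, after their values were seen. Tapbpl and Erap1 fell as deposited but not with median-of-ratios scaling. Pdia3 was at 436 and 342 FPKM (log2 fold change −0.35, adjusted p = 0.00298) and Calr at 56.8 and 48.8 FPKM (−0.22, adjusted p = 0.0254), and neither fell with median-of-ratios scaling. In the same libraries the hepatocyte and hepatoma marker sum stood at 0.659 of its negative level, and its part in these falls was not tested. Of 8 cytosolic peptidases that destroy or trim peptides, 1 rose and 4, Thop1, Blmh, Rnpep and Dpp9, fell, by 0.67, 0.39, 0.42 and 0.75 on the log2 scale, and those 4 also fell with median-of-ratios scaling, when 2 rose. As deposited, the peptidase shares were near or below the 23.3% higher and 45.5% lower of all genes tested. The 10 of 13 lower among the endoplasmic reticulum genes was a larger share than that 45.5%.

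The remaining proteasome genes moved in both directions, in shares not far from or below those of all genes tested, 23.3% higher and 45.5% lower. Of 11 other constitutive 20S subunits, 1, Psma3, rose and 4 fell, with a median of −0.13, but 0 fell with median-of-ratios scaling. Only 2 fell without positive replicate 3. Psma7 fell by 0.38 (adjusted p = 0.0024), and Psma5 and Psmb4 by 0.26 and 0.28. Of 10 activator and assembly genes, 2 rose and 5 fell, and 3 rose and 2, the assembly chaperone genes Psmg2 and Psmg4, fell with median-of-ratios scaling. PA28, a proteasome cap known to be induced by interferon gamma, is built from PSME1 and PSME2. Psme1 was at 64.9 ± 1.05 and 64.8 ± 1.90 FPKM (SD, n = 3 each; limma adjusted p = 0.962), and passed as higher with median-of-ratios scaling (0.19, adjusted p = 0.0282). Psme2 rose from 84.4 ± 1.78 to 106 ± 8.96 FPKM (log2 fold change 0.32, adjusted p = 0.00319).

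Regulators of class I transcription rose or did not pass. Of 19 tested, 10 rose and 0 fell, by a median of 0.21, beside 23.3% higher and 45.5% lower of all genes tested. With median-of-ratios scaling 12 rose. Nfkb1, an NF-kappaB subunit, rose from 2.80 ± 0.177 to 11.02 ± 0.662 FPKM and Irf9, an interferon regulatory factor gene, from 6.57 ± 0.668 to 20.3 ± 2.01 FPKM (SD, n = 3 each). Irf1, which acts at interferon motifs of class I genes, rose from 82.7 ± 3.48 to 118 ± 5.42 FPKM (log2 fold change 0.51, adjusted p = 0.000103), and Suz12, a Polycomb subunit, rose by 0.46. By limma-voom 0 fell, and at an unadjusted p under 0.05 0 were lower. Only 8 rose without any one of negative replicates 2 and 3 and positive replicates 2 and 3. Without negative replicate 3, 1 gene, Rfxank, fell.

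Interferon receptor and signalling genes were higher in part. Of 10 tested, 6 rose and 1, the interferon gamma receptor chain gene Ifngr1, fell, a call that ended with median-of-ratios scaling and without negative replicate 2 or positive replicate 3. The kinase genes Jak2 and Jak1 rose by 1.63 and 1.04, and the type I interferon receptor chain genes Ifnar1 and Ifnar2 by 1.01 and 0.98. Of 19 interferon gamma-induced genes outside class I, 13 rose and 1, Wars, fell, with a median of 0.81, and 14 and 1 with median-of-ratios scaling. The counts of both lists stand beside 23.3% higher and 45.5% lower of all genes tested. Cd274, which encodes PD-L1, rose from 17.5 ± 2.97 to 158 ± 7.77 FPKM (SD, 3 libraries per group). The guanylate-binding protein genes Gbp8 and Gbp7 rose by 2.34 and 1.25 and the chemokine gene Cxcl9 by 2.08. The leukocyte gauge rose 9.3-fold in the same libraries, and its part in these rises was not tested.

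Receptors of class I molecules and their relatives were also listed. Of 11 tested, 7 rose and 0 fell, and as many did so after median-of-ratios scaling and by limma-voom. Among all genes tested, 23.3% were higher and 45.5% lower. At an unadjusted p under 0.05, 0 were lower. Their median was 1.94 on the log2 scale. Over all 16 in the table, without a filter, the median was 0.41, 8 rose and 1, Klra8, fell. Without any one positive library 7 or 8 were tested and 4 rose. The inhibitory receptor gene Pirb, whose product binds class I molecules on myeloid cells, rose from 1.73 ± 0.126 to 17.9 ± 0.830 FPKM (SD, n = 3 each), and the related immunoglobulin-like receptor genes Lilrb4a and Lilr4b rose by 3.32 and 3.52. Pira2 was at 0.477 to 0.871 FPKM in negative and 6.36 to 7.003 FPKM in positive libraries, and it too entered the fit only through the positive group. In the same libraries the list summed to 9.72 times its negative level, beside 9.3 times for the leukocyte gauge and 20.9 times for macrophage and monocyte markers, and their part in these rises was not tested.

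**Figure D4:**
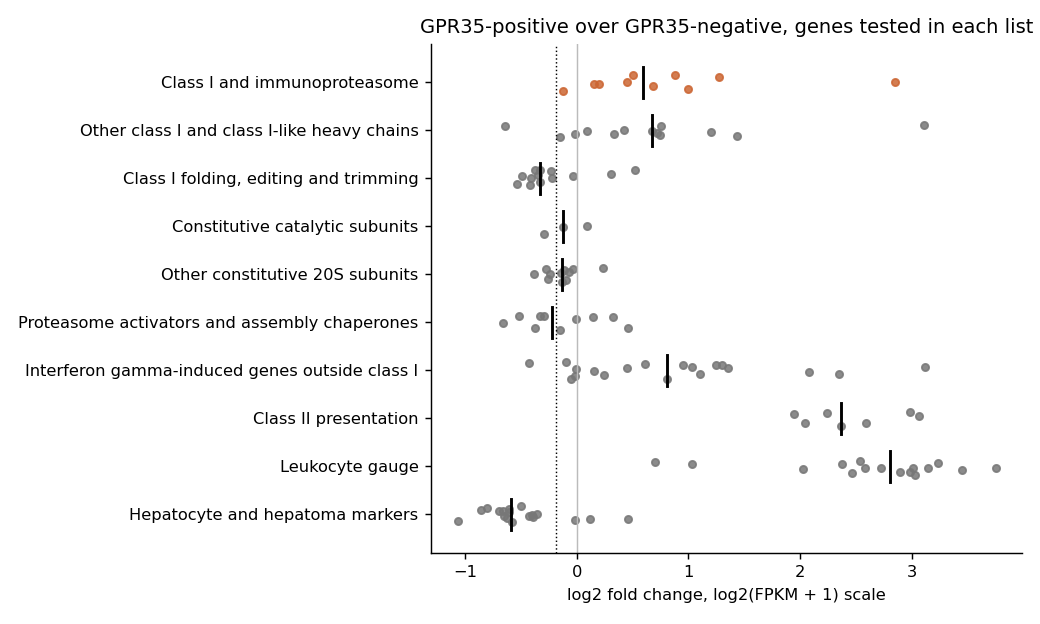
Log2 fold change (GPR35-positive over GPR35-negative, log2(FPKM + 1) scale) of each gene tested, by list, with the 10 class I and immunoproteasome genes in orange, a black bar at each list's median and a dotted line at the median of all genes tested. The 10 genes have a median of 0.59, between the constitutive proteasome lists, which lie near the dotted line at −0.19, and the class II and leukocyte lists at 2.37 and 2.81.

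Genes whose levels went most like those of 4 members over the 6 libraries were found by the smallest Euclidean distance of centred log2(FPKM + 1). For H2-K1 these were Nrros, Ifi207 and Cd14, the gene of a lipopolysaccharide co-receptor of myeloid cells, at distances of 0.112, 0.121 and 0.127. For B2m they were the interferon-stimulated gene Oas1a, the glycolytic regulator gene Pfkfb3 and Gm17455, at 0.132, 0.161 and 0.171. Ifi207 and Gm17455 were under 1 FPKM in every negative library and entered the fit only through the positive group. Their ratios of mean FPKM were 14.2 and 5.1, against 7.33 for H2-K1 and 1.97 for B2m. The log2(FPKM + 1) scale understates changes of such low genes, so a small distance is not a like ratio. Nlrc5 was closest to the phosphatase gene Ptpn1, Ankrd13a and Adprh, at 0.0686, 0.0756 and 0.0763. Psmb8 was closest to Plac8, Samd4b and Tle4, at 0.0657, 0.11 and 0.111. With 2 groups of 3 libraries, these distances mostly record a like difference between groups.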

How the data were processed

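Total RNA of 6 neutrophil libraries, 3 per group as titled, was extracted with Trizol and made into libraries with the NEBNext Ultra II RNA kit, per the labels' protocols. The authors deposited 1 table of FPKM, fragments scaled to gene length and library reads, per the file headers. HISAT2 2.1.0 and HTSeq 0.9.1 are named, with no role, per the submitters' processing notes, as are DESeq 1.38.3 and fastp 0.22.0. The notes give the build GRCh38, while the table holds mouse gene IDs. Annotation and strand setting are not given in the sources used here.

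With GENCODE M21 exon lengths (GRCm38; 21851 of 21959 IDs had an entry), 97.7% of values above 0 were whole reads within 0.02 reads, which gave library totals. All 6 value columns were used. Genes reaching 1 FPKM in 3 or more libraries entered limma-trend (limma 3.58.1, R 4.3.3) on log2(FPKM + 1), two-sided, group as the only term, Benjamini-Hochberg over all genes at 0.05. This scale understates changes of low genes. Adjusted p-values are from limma. Ratios within libraries used an exact permutation test over 20 assignments, adjusted over 29 ratios. Alternatives were a pseudocount of 0.1, other filters, median-of-ratios scaling, a replicate block, limma-voom on the recovered reads and leaving out each library. The fit was also run on simulated data in which few genes changed, as often up as down. That run cannot speak to scaling where most genes were called. Other tools were Python 3.11.15, numpy 2.4.6, pandas 2.3.3, scipy 1.17.1 and matplotlib 3.10.9.

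The 10 members and the gene lists were chosen with earlier results of these data known. Genes named are the members, Psmb5, Psmb6, Psmb7, Psme1, Psme2, Gpr35, in each list up to 4 genes of smallest p, and the 3 genes closest to each of 4 members; exceptions of 5 or fewer genes in a count and map neighbours are named as well.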

Additional observations from a re-analysis of the deposited data

How the results depend on the processing

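H2-K1, H2-D1, B2m, Tap1, Tap2, Nlrc5 and Psmb9 passed as higher under each of the 12 alternatives run, and the number of the 10 genes called higher ran from 7 to 9. With median-of-ratios scaling, 2401 of all genes tested were lower in place of 4575 and 2913 higher in place of 2342, Psmb10 had a log2 fold change of 0.071 in place of −0.12, and Tapbp passed. The cause was not tested. Without a filter 3440 genes were higher. Leaving out each library moved the Psmb10 percentage difference between −0.212 and 0.309 points and the Psmb9 to Tap1 difference between −0.0412 and 0.0133. The principal transcript length, added after seeing the data, moved the Psmb8 percentage difference to 8.33 points, by its construction. With the replicate number as a block, 2365 genes were higher and 4633 lower, and Psmb8 did not pass (adjusted p = 0.0532 by limma). The numbers do not pair the libraries: deviations of same-numbered libraries correlated at −0.00177, 0.4002 and −0.0642. The fewest reads lay behind Nlrc5 (226 to 812 per library) and Tap2 (244 to 582). Groups of 3 were not tested for outlying libraries.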
